A study of Mus musculus with 12 samples.

Results

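The genes described are those of the cytosolic ribosomal proteins, chosen by symbol alone. They are the lines of the liver FPKM table whose symbol starts with Rpl or Rps followed by a digit. Symbols that join several genes, symbols of the Rps6k kinases and symbols marked -ps (pseudogenes) were left out. The rule found 80 of the 23849 symbols in the table, 47 named for the large subunit (Rpl) and 33 for the small subunit (Rps). Testing was limited to genes averaging 1 FPKM or more across the 12 libraries, and 68 of the 80 passed, 37 of the large and 31 of the small subunit. The rule also takes in 8 paralogs of ribosomal proteins and Rps19bp1, which encodes a protein that binds Rps19 and is not itself a ribosomal protein. Without these 9, the list holds 71 genes, of which 62 were tested. Among the paralogs, Rps4l is annotated as a transcribed processed pseudogene, but its symbol is not marked -ps, so it stayed in the list.

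Liver RNA was sequenced from 12 male mice of a C57BL/6J background, 8 weeks old by the study's design, all fed a high-fat diet (HFD). They formed 4 groups of 3 mice: vehicle or Policaptil Gel Retard, called Libramed in the labels and figures, each collected at ZT0 or ZT12 (Zeitgeber time, in hours from lights on). Treatment lasted 2 weeks, and every mouse, control or treated, received HFD, so the groups hold no lean reference. By the paper, HFD feeding began weeks before the treatment. Policaptil Gel Retard is a blend of fibers that forms a gel in the gut, given by gavage, and control mice received drinking water. By the paper, gavage was given daily, shortly before lights off. Time since the last gavage thus differs between ZT0 and ZT12 and cannot be told apart from time of day. Values are FPKM, read counts scaled for gene length and library size. The sum of a library lay between 634683 and 759355, and the absolute depth is unknown because the table holds no counts. The tissue label was checked on 8 hepatocyte markers: 7 summed to between 31440 and 47030 FPKM, while albumin is listed at 0 in every library.

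The ribosome is built from a small subunit, which reads the mRNA, and a large subunit, which joins amino acids. Each ribosomal protein is needed in about the same number of copies, and most are made by 1 active gene with introns. That gene is accompanied in the mouse genome by many processed pseudogenes, intronless copies of its mRNA. Ribosomal protein mRNAs typically start with a run of pyrimidines, the terminal oligopyrimidine (TOP) tract, through which mTORC1 controls their translation. In liver, feeding is known to raise ribosome production.

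By the methods of the study, a read that matched more than 1 place equally well was discarded. Whether that step made the deposited values is not settled, and its part in the listed levels was not tested. Rps27, a small subunit protein with a zinc finger, is shown beside its closest copies. Its coding sequence lies in exons within chr3:90212522-90213651 (minus strand, mm10). A single-exon copy, Rps27rt, lies at chr9:114982366-114982739 on the minus strand. The paralog Rps27l lies at chr9:66946086-66949516 on the plus strand. The 3 coding sequences, of 255 bases each, are shown to compare what a read can tell apart, with capitals at each base that differs from Rps27.
Rps27: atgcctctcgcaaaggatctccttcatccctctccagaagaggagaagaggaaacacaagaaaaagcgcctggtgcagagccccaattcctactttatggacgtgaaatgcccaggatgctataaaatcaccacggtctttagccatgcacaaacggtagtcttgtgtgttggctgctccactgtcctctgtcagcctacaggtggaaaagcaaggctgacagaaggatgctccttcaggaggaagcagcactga
Rps27rt: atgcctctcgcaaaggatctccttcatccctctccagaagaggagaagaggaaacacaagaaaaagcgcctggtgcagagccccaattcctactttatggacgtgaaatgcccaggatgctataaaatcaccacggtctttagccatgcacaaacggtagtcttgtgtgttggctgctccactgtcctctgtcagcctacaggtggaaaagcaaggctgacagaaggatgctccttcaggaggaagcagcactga
Rps27l: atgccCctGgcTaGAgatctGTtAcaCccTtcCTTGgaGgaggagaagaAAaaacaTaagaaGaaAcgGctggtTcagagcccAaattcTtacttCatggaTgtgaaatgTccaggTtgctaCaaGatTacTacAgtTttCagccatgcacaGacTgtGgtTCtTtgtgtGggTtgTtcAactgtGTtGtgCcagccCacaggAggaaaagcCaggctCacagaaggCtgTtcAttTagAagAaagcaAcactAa
Rps27 and Rps27rt differ at 0 of the 255 bases, and 98.4% of the 100-base windows of the Rps27 mRNA occur letter for letter in another annotated gene. Rps27l differs from Rps27 at 61 bases, and 0% of its windows occur elsewhere. The table lists Rps27 at a mean of 2.40 FPKM and Rps27l at 469.5 FPKM over the 12 libraries.

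Rpl36a and its paralog Rpl36al, both large subunit genes, are a second pair, with fewer differences in sequence. The first 150 coding bases are shown, with capitals where Rpl36al (chr12:69182731-69184083, minus strand) differs from Rpl36a (chrX:134585654-134588062, plus strand).
Rpl36a: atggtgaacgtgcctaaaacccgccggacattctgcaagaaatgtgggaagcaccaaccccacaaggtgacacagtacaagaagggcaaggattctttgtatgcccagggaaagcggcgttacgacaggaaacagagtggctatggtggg
Rpl36al: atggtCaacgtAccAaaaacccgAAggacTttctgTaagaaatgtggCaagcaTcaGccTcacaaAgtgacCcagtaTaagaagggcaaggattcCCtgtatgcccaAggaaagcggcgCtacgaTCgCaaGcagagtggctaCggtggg
Over the whole coding sequence of 321 bases they differ at 39. Of the 100-base windows that touch coding sequence, 83.6% of those of Rpl36a and 30.8% of those of Rpl36al occur in another gene. The mean level was 0.480 FPKM for Rpl36a and 235.5 FPKM for Rpl36al.

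Across the members the listed levels ranged from 0 to 1008 FPKM, with a median of 26.6 FPKM over the 80 genes. The highest was Rpl41, which encodes the smallest ribosomal protein. Its mean was 1155 ± 136.3 FPKM (SD, n = 3) in vehicle-treated mice at ZT0. Among the next in mean level over the 12 libraries were Rps15, a protein of the small subunit head, at 915.8 FPKM, Rps21 at 790.6 and Rpl8 at 621.2 FPKM. The 10 highest members held 62.0% of the summed level of all 80. There were 24 genes at 100 FPKM or more, 9 of the large and 15 of the small subunit, 26 between 10 and 100, and 18 between 1 and 10 FPKM. The median was 21.5 FPKM over the 47 large subunit symbols and 73.3 FPKM over the 33 small subunit symbols. All genes tested had a median of 7.79 FPKM.

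**Figure D1:**
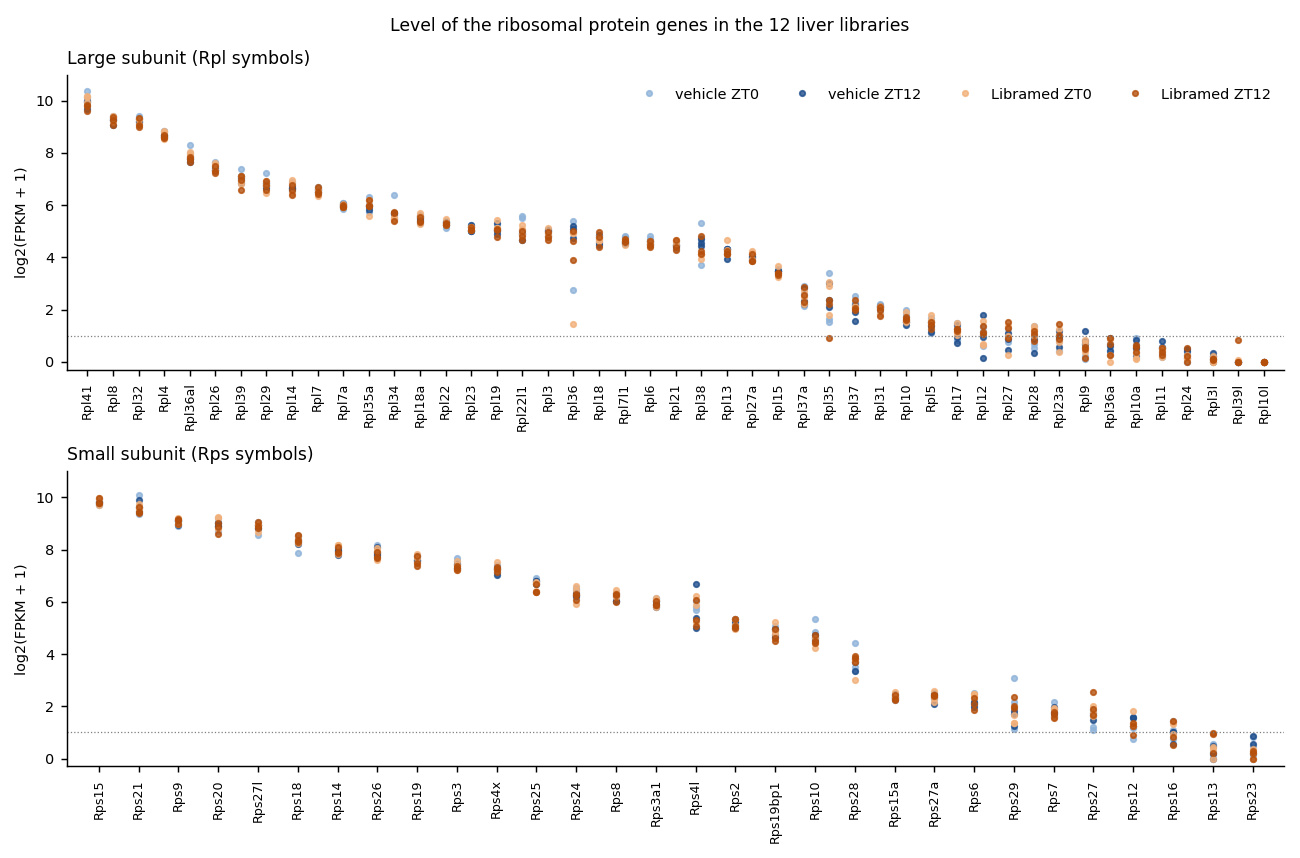
Level of the ribosomal protein genes reported here on a log2(FPKM + 1) scale, large subunit symbols above and small subunit symbols below, each ordered by mean level, with 1 point per library coloured by group. The dotted line marks 1 FPKM. Points of the 4 groups overlap for most genes, and the spread of a single gene is widest for Rpl36.

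The lowest members that were tested were Rpl27 (1.06 FPKM), Rps16 (1.09), Rpl12 (1.16), Rpl17 (1.24) and Rps12 (1.49 FPKM). Below the minimum of 1 FPKM were 12 genes. Rpl10l, the testis paralog of Rpl10, is listed at 0 in all 12 libraries. Rpl39l, another paralog known from testis, had a mean of 0.0726 FPKM and Rpl3l, the paralog of heart and skeletal muscle, 0.0991 FPKM. Their partners Rpl10, Rpl39 and Rpl3 were at 2.21, 127.5 and 29.7 FPKM. Among paralogs in liver, Rpl7l1 was at 24.1 FPKM beside Rpl7 at 93.2, and Rpl22l1 at 32.3 FPKM beside Rpl22 at 38.4. The other 9 encode core ribosomal proteins: Rpl24 at 0.203 FPKM, Rps23 at 0.286, Rps13 at 0.359, Rpl11 at 0.365, Rpl10a at 0.429, Rpl36a at 0.480, Rpl9 at 0.517, Rpl23a at 0.879 and Rpl28 at 0.985 FPKM. Rpl11, which with Rpl5 carries the 5S rRNA into the large subunit, is a protein every ribosome holds, as Rps23 and Rpl9 are. A value near 0 for these genes is therefore a level listed in the table and was not read as absence of the mRNA.

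The share of an mRNA that occurs elsewhere was measured for all 80 members on annotated transcripts (GENCODE vM21, same build as mm10), in windows of 100 bases, the read length of the study. In 70 of the 80, at least 1 window occurred letter for letter in a gene at another place, and Rpl21 shared windows with 40 other genes. The 71 genes without the paralogs and Rps19bp1 were compared by their share of coding windows found elsewhere. In the 26 genes under 5 FPKM the median share was 76.7% (range 27.5% to 98.4%). In the 23 genes between 5 and 100 FPKM it was 55.3% (0% to 82.4%). In the 22 genes at 100 FPKM or more it was 22.8% (0% to 57.3%). Of 31 genes with a share of 60% or more, 22 were listed under 5 FPKM, and 0 of the 22 highest genes reached that share. Spearman's rho between mean level and share was -0.77 over the 71 genes and -0.58 over the 79 members with a coding sequence. Genes are not independent replicates, and this is a description across genes that share the same 12 libraries. These limits of level and share were chosen after the values were seen.

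**Figure D2:**
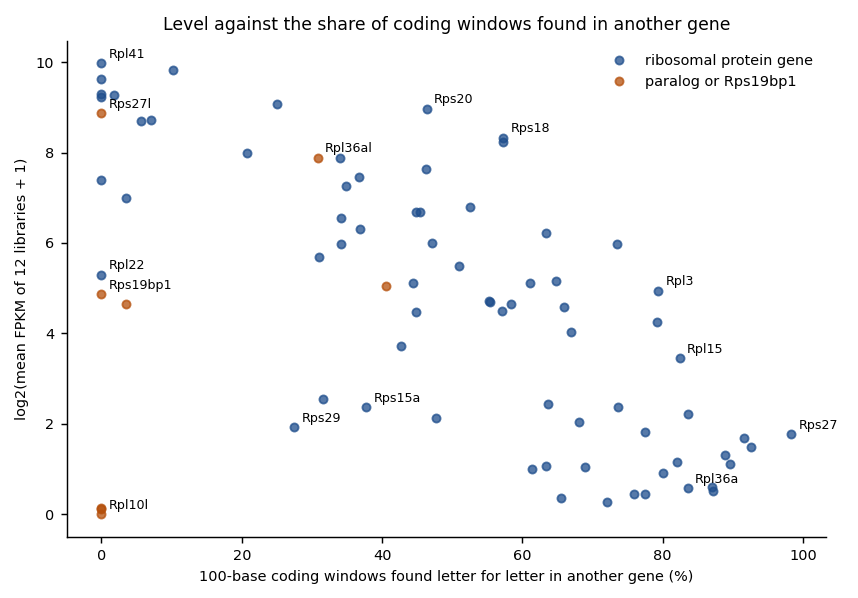
Mean level of each gene, as log2(mean FPKM + 1), against the percent of its 100-base coding windows that occur letter for letter in another annotated gene, for 79 members. Genes above 400 FPKM lie between 0% and 46.4%, other genes under 5 FPKM lie at 27.5% or more, and the paralogs Rpl10l, Rpl39l and Rpl3l lie at 0% and near 0 FPKM.

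Single genes chosen after their values were seen show both sides. Rps21 had 0% of its windows elsewhere, Rpl32 0% and Rpl8 1.73%, with levels between 601.2 and 790.6 FPKM. Rpl5 had 92.6% of its coding windows elsewhere and was listed at 1.78 FPKM, Rpl10 91.6% at 2.21 FPKM, and Rpl12 89.6% at 1.16 FPKM. Some genes departed from the order. Rps18 was listed at 321.7 FPKM although 57.3% of its coding windows occur elsewhere. Rps29 had 27.5% elsewhere and was at 2.80 FPKM. For Rpl14, a large subunit protein, 36.9% of its windows occur in the processed pseudogene Rpl14-ps1. That pseudogene is listed at 360.1 FPKM and Rpl14 itself at 102.0 FPKM, and the reads of the 2 may not have been separated. Levels of members, and their order, are thus given as listed and are uncertain wherever an identical copy exists. How reads with several matches were counted in these values is not known.

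The starts of the genes are shown for the pyrimidine tract. The RefSeq promoter table (GRCm38.p6) held 61 of the 80 members, with 73 annotated starts. A run of at least 5 C or T, beginning with C within 5 bases of the start, was found at 29 of these starts, or 39.7%, and at 18.3% of the 32851 starts of all genes. Windows of 15 bases before and 20 bases from the annotated start are given for 4 genes with a run, in capitals, and for Rpl41 and Rps15, in which no run met this rule.
Rps6 (chr4:86857348-86857382, minus strand): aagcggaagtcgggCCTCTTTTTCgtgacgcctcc
Rps10 (chr17:27635225-27635259, minus strand): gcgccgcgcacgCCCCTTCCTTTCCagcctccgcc
Rps27 (chr3:90213629-90213663, minus strand): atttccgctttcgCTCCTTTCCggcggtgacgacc
Rpl22l1 (chr3:28805493-28805527, plus strand): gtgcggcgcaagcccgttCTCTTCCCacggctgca
Rpl41 (chr10:128549149-128549183, minus strand): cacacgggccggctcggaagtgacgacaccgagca
Rps15 (chr10:80292416-80292450, plus strand): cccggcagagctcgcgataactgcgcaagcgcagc
The annotated base may differ from the base where the mRNA begins in liver, so a missing run says only that the letters are not in this window. The letters CCGGAAG, the core bound by factors of the ETS family, occurred on either strand within 250 bases before to 50 after 34.2% of the members' starts, 18.7% of the starts of all genes tested and 8.86% of all starts. AAGATGG, part of the YY1 motif, occurred at 15.1%, 7.70% and 6.34%, and the pyrimidine run at 19.7% of the starts of all genes tested. Mitochondrial ribosomal protein genes, which have no TOP tract by their usual description, held CCGGAAG at 32.4% and the pyrimidine run at 23.9% of their starts. Proteasome genes held CCGGAAG at 35.3%. AAGATGG occurred at 18.3% of the mitochondrial ribosomal protein starts, 17.6% of proteasome starts and 14.7% of respiratory chain starts, near the share of the members. The pyrimidine run was found at 29.4% of respiratory chain starts and 20.6% of proteasome starts. Among elongation factors and other mRNAs known to carry a TOP tract it was found at 50% of 10 starts.

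As a group, the members took between 1.27% and 1.74% of the FPKM sum of a library. The share was 1.62% ± 0.135 (SD, n = 3) in vehicle at ZT0 and 1.46% ± 0.0482 in vehicle at ZT12. With the tested product it was 1.60% ± 0.0760 at ZT0 and 1.36% ± 0.0773 at ZT12. This share, which the highest genes dominate, did not overlap between times with the product (1.51% to 1.65% at ZT0, 1.27% to 1.42% at ZT12), and with vehicle it did (1.47% to 1.74% and 1.41% to 1.51%). The summed FPKM of the members did overlap with the product, at 11280, 9611 and 11400 at ZT0 and 10790, 9936 and 9189 at ZT12. The gap in the share therefore also rests on the FPKM sums of the libraries. Fold changes are differences of log2(FPKM + 1), which understates changes of low genes. Each library was then described by the median deviation of the 68 tested genes from their own means, on the log2(FPKM + 1) scale. In vehicle at ZT0 it was 0.15, -0.06 and 0.09 in replicates 1, 2 and 3, and at ZT12 -0.06, -0.04 and 0.01. With the tested product it was 0.10, -0.11 and 0.13 at ZT0 and 0.05, -0.05 and -0.15 at ZT12. By this median the groups overlap in both treatments, and replicate 2 of each ZT0 group lay among or below the ZT12 libraries. In these 2 libraries 21 and 9 of the 68 genes were above their own mean, against 54 or 55 in the other 4 ZT0 libraries. The respiratory chain genes were also lowest in these 2 libraries (-0.18 and -0.16), as were the mitochondrial ribosomal protein genes (-0.09 and -0.16). The part of these libraries in the results was not tested beyond leaving them out.

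**Figure D3:**
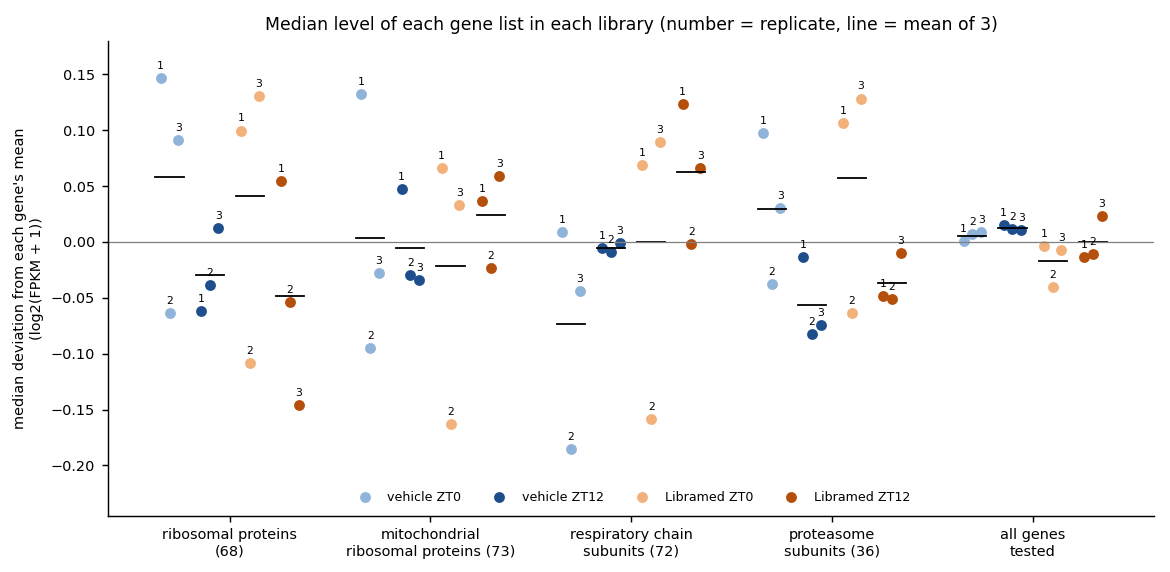
Median deviation of each gene list from its genes' own means in each library, on the log2(FPKM + 1) scale, with the replicate number above each point and the mean of 3 as a line. Replicate 2 of both ZT0 groups lies below the other ZT0 libraries of its group in the first 4 lists, and the medians over all 9806 genes stay between -0.04 and 0.02.

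Time of day was examined first in vehicle-treated mice. At ZT12, 55 of the 68 genes were lower than at ZT0 (80.9%) and 13 higher, with a median log2 fold change of -0.07. Over all 9806 genes tested, 48.8% were lower and the median was 0.01. The shift of the ribosomal protein genes was smaller than the spread between mice, since the medians of single libraries varied within groups with an SD of 0.10. With limma and Benjamini-Hochberg adjustment, 0 of the 68 genes passed an adjusted p of 0.05 in either direction, where 5.62% of all genes passed as higher and 4.78% as lower. At an unadjusted p under 0.05, 7 were lower (background 13.0% of all genes) and 2 higher (14.4%). Neither count exceeds the background share. Large and small subunit genes gave medians of -0.07 and -0.07, with 32 of 37 and 23 of 31 lower. In a bulk sample of liver, fewer cells of a type and less RNA per cell cannot be told apart.

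Rpl22l1, whose product can stand in for Rpl22 in the ribosome, had the lowest log2 fold change among genes with p under 0.05. It was at 44.4, 31.9 and 46.8 FPKM at ZT0 and at 24.3, 28.7 and 29.6 FPKM at ZT12 with vehicle. All ZT12 mice were below all ZT0 mice. The log2 fold change was -0.54 (SE 0.16, limma adjusted p = 0.0778). Its partner Rpl22, with 0% of windows elsewhere, did not pass, at 41.4, 33.8 and 37.3 FPKM at ZT0 and 39.8, 36.6 and 40.5 FPKM at ZT12. With the tested product Rpl22l1 was at 32.7, 29.0 and 36.9 FPKM at ZT0 and 31.2, 24.1 and 27.4 FPKM at ZT12, where the groups overlap (log2 fold change -0.25, limma adjusted p = 0.249).

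Rpl7l1, a paralog of Rpl7 that takes part in building the large subunit, was at 27.0, 26.2 and 26.4 FPKM at ZT0 and 22.4, 21.96 and 22.9 FPKM at ZT12 with vehicle. The groups do not overlap, and the log2 fold change was -0.23 (SE 0.07, limma adjusted p = 0.0808). Rpl10, which joins the large subunit late in its assembly, had a log2 fold change of -0.35 (limma adjusted p = 0.0696) at a level near 2 FPKM, and Rpl37 one of -0.45 (limma adjusted p = 0.142) at a level between 2.00 and 4.78 FPKM. Rpl36al was at 267.9 ± 44.9 FPKM at ZT0 and 212.5 ± 9.44 FPKM at ZT12 (SD, n = 3). Its log2 fold change was -0.32 (limma adjusted p = 0.161). Rpl26 and Rps3, chosen after their values were seen, were the other 2 genes lower at p under 0.05, with log2 fold changes of -0.23 and -0.24.

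Rps12, a small subunit protein, was among the genes higher at p under 0.05. It was at 1.11 ± 0.386 FPKM at ZT0 and 1.78 ± 0.358 FPKM at ZT12 (SD, n = 3), and 88.9% of its coding windows occur in another gene. The other genes at the upper end, Rpl36 (0.64), Rpl35 (0.31) and Rps27 (0.25), did not pass p of 0.05, and at the lower end Rps29 (-0.54) did not either.

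These counts changed with single libraries. Without replicate 2 of vehicle ZT0, 62 of 68 genes were lower, with a median of -0.15, and without replicate 1 or 3 of that group 45 and 46 were. Without replicate 2, 11 genes were lower at p under 0.05, where 13.3% of all genes were, and Rpl22l1 passed (log2 fold change -0.71, limma adjusted p = 0.01996). Without replicate 1 or 3 of vehicle ZT0, or replicate 2 of vehicle ZT12, 4 genes were lower at p under 0.05. Of all genes, 13.5%, 10.2% and 10.1% were lower there. Quantile normalization of the libraries gave 12 lower at p under 0.05, where 14.1% of all genes were, and 2 higher, where 1309 of the 9806 genes were.

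In mice given Policaptil Gel Retard, 46 of the 68 genes (67.6%) were lower at ZT12 than at ZT0 and 22 higher, with a median log2 fold change of -0.08. Over all genes 47.5% were lower and the median was 0.01. With adjusted p under 0.05, 1 gene was higher, against 7% of all genes tested, and 0 were lower, against 5.36%. At p under 0.05, 1 was higher (background 15.7%) and 2 lower (13.4%). The 24 genes at 100 FPKM or more had a median of -0.10, with 21 lower, while all genes at 100 FPKM or more had a median of 0.08. In vehicle-treated mice the same 24 had a median of -0.07, with 20 lower, and all genes at that level 0.05. In both treatments, 38 of the 68 members were lower (55.9%), and 35.2% of all genes were.

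**Figure D4:**
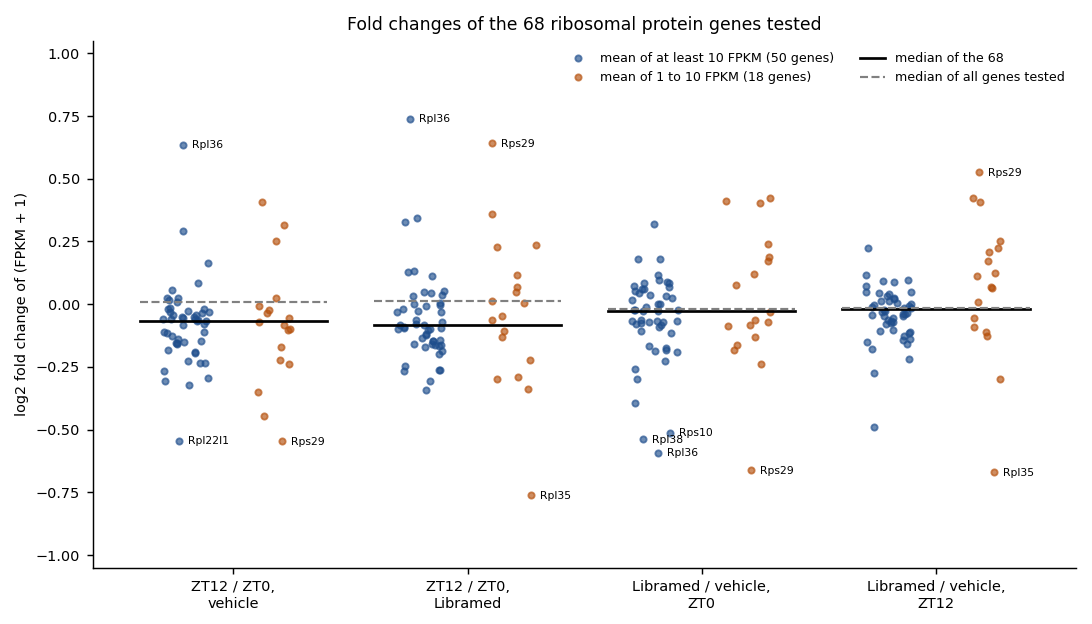
Log2 fold change of (FPKM + 1) of the 68 genes tested in the 4 pairwise comparisons, split at a mean of 10 FPKM, with the median of the 68 (solid line) and of all 9806 genes tested (dashed line). The solid line lies 0.07 and 0.08 below 0 for time and 0.03 and 0.02 below 0 for the product. Genes beyond 0.5 in either direction are named.

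Rps29, a zinc-binding protein of the small subunit, was the gene called higher at ZT12 than at ZT0 in mice given the tested product. It was at 2.20, 1.56 and 1.55 FPKM at ZT0 and 2.79, 4.18 and 3.06 FPKM at ZT12. All ZT12 mice were above all ZT0 mice, and the log2 fold change was 0.64 (SE 0.15, limma adjusted p = 0.0362). In vehicle-treated mice it was at 7.38, 1.18 and 3.54 FPKM at ZT0 and 1.34, 2.23 and 2.53 FPKM at ZT12, where the groups overlap and the log2 fold change was -0.54 (adjusted p = 0.493). Of 16 other settings, 7 kept the call, with adjusted p between 0.00495 and 0.282. It was lost without replicate 2 (adjusted p = 0.108) or 3 (0.110) of the ZT0 group and without replicate 2 (0.0888) or 3 (0.0767) of the ZT12 group.

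Rpl41 was at 1116, 982.7 and 1147 FPKM at ZT0 and 876.3, 908.8 and 778.0 FPKM at ZT12 with the tested product, without overlap (log2 fold change -0.34, SE 0.10, limma adjusted p = 0.0754). In vehicle-treated mice it was at 1305, 1038 and 1122 FPKM at ZT0 and 821.1, 1010 and 995.0 FPKM at ZT12, also without overlap (-0.29, limma adjusted p = 0.202). Rps6, the substrate of the S6 kinases downstream of mTORC1, was at 4.5, 4.28 and 4.48 FPKM at ZT0 and 4.02, 2.66 and 3.30 FPKM at ZT12 with the tested product (log2 fold change -0.34, limma adjusted p = 0.122). The other genes at the ends of the range did not pass p of 0.05. At the upper end these were Rpl36 (0.74), Rpl27 (0.36), Rpl38 (0.34) and Rps28 (0.33), and at the lower end Rpl35 (-0.76), Rps4l (-0.30) and Rps12 (-0.30).

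The counts again changed with single libraries. Without replicate 2 of the ZT0 group given the product, 58 of 68 genes were lower, with a median of -0.16 and 7 lower at p under 0.05. The count was 6 without replicate 1 and 0 without replicate 3 of the ZT12 group, and 1 without replicate 1 or 3 of ZT0 or replicate 2 of ZT12. With single replicates left out, 10.6% to 12.8% of all genes were lower at that level. Without replicate 1 of ZT12, Rps6 also passed after adjustment, as lower. Quantile normalization gave 16 genes lower at p under 0.05 and 7 calls after adjustment, among them Rpl36al, Rpl41, Rps15 and Rps21 as lower and Rps29 as higher. In that setting 15.6% of all genes were lower at p under 0.05, and 619 of the 9806 genes were called higher and 626 lower after adjustment. The median of the members was -0.17.

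The tested product was then compared with vehicle at each time, in fits that share the control mice with the comparisons above. At ZT0, 40 of the 68 genes were lower and 28 higher with Policaptil Gel Retard, with a median log2 fold change of -0.03 beside -0.02 for all genes. With limma and adjusted p under 0.05, 0 genes passed, as for all 9806 genes (0%). At p under 0.05, 1 was higher (background 3.42%) and 1 lower (5.81%). Rps10, a small subunit protein at the mRNA entry side, was the lower one. It was at 23.6, 17.7 and 20.4 FPKM with the product and 39.2, 24.0 and 27.3 FPKM with vehicle (log2 fold change -0.51, SE 0.19, limma adjusted p = 0.521). Vehicle replicate 1 was far above the other mice for Rps10, and without it the log2 fold change was -0.31. The other genes at the ends of the range did not pass p of 0.05. These were Rps27 (0.43), Rps12 (0.41), Rpl35 (0.41) and Rps6 (0.24) at the upper end, and Rps29 (-0.66), Rpl36 (-0.59), Rpl38 (-0.54) and Rpl34 (-0.40) at the lower end. The median changed sign to 0.06 without replicate 2 of the ZT0 group given the product and to 0.02 without replicate 1 of vehicle ZT0. Without both replicates 2, the count lower at p under 0.05 was 4, where 3.89% of all genes were.

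At ZT12, 40 of the 68 genes were lower and 28 higher with the product, with a median of -0.02 beside -0.01 for all genes. With limma, 0 members and 0% of all genes passed after adjustment. At p under 0.05, 1 was higher (background 3.07%) and 1 lower (3.67%). Rps29 was higher, at 2.79, 4.18 and 3.06 FPKM against 1.34, 2.23 and 2.53 FPKM (log2 fold change 0.53, SE 0.19, limma adjusted p = 0.729). Rps25, a small subunit protein used in initiation at internal entry sites, was lower, at 100.3, 82.7 and 81.6 FPKM against 109.8, 108.9 and 100.4 FPKM (log2 fold change -0.27, SE 0.10, limma adjusted p = 0.729). Its groups do not overlap, but the highest mouse given the product and the lowest control differ by less than 1 FPKM. The other genes at the ends of the range did not pass p of 0.05, among them Rpl27 (0.42), Rps27 (0.41), Rpl37 (0.25) and Rps28 (0.23) and, at the lower end, Rpl35 (-0.67), Rpl36 (-0.49), Rps12 (-0.30) and Rps4l (-0.22). The median SE of the log2 fold change of a member was 0.13 at ZT0 and 0.11 at ZT12. These data therefore set no narrow bound on changes of single genes. The median changed sign to 0.02 without replicate 3 of the vehicle ZT12 group and to 0.02 without replicate 3 of the ZT12 group given the product.

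Whether the time difference itself differed between treatments was tested as an interaction over all 12 mice. After adjustment 0 members passed, and 0% of all genes did. At p under 0.05, 4 members had a positive interaction (background 3.82% of all genes) and 1 a negative one (2.80%). Positive values, meaning a larger rise or a smaller fall at ZT12 with the product, were found for Rps29, Rpl37, Rpl10 and Rpl7l1, and a negative one for Rps12. Further ends of the range, with p above 0.05, included Rps10 (0.44) and, on the negative side, Rpl35, Rps6 and Rpl19 (-1.07, -0.23 and -0.23). The median over the 68 genes was -0.01 and 0.00 over all genes.

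**Figure D5:**
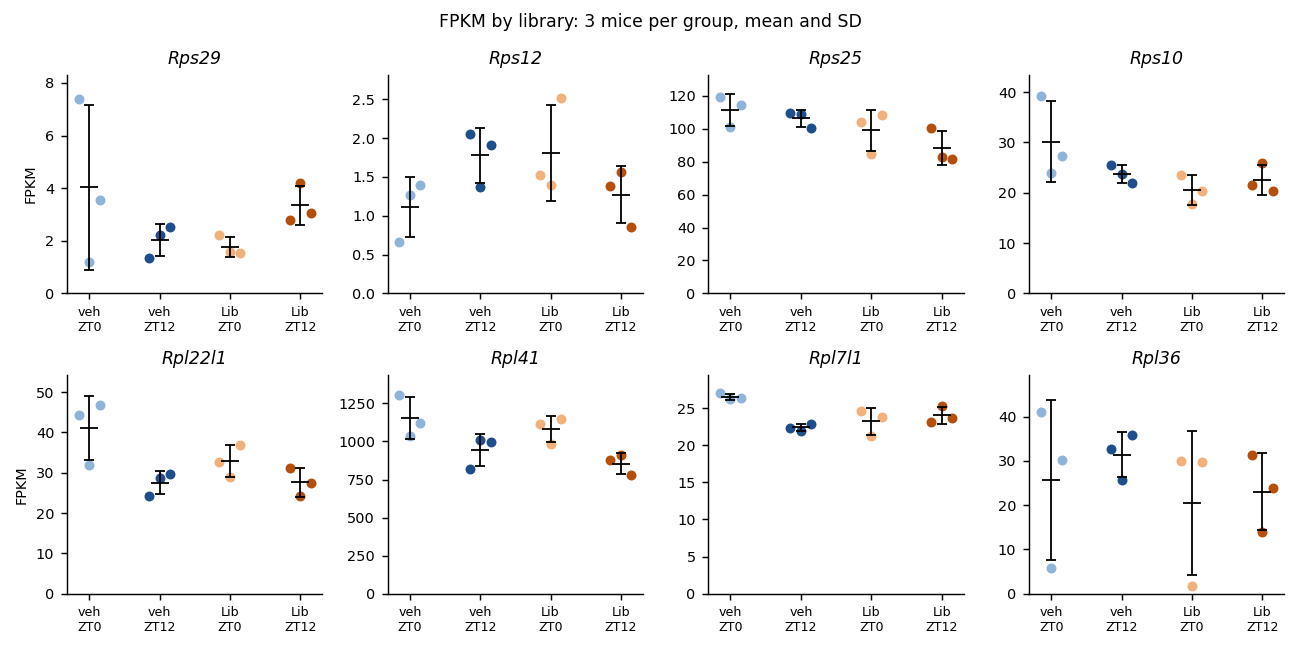
FPKM of 8 genes in each library (points, 3 mice per group), with the group mean and SD, on axes that start at 0. Rpl22l1 and Rpl7l1 are lower at ZT12 in vehicle-treated mice without overlap, Rps29 is higher at ZT12 with the product, and 1 library of each ZT0 group lies far below the others for Rpl36.

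The members differed in how much they varied between mice of 1 group. The SD within groups on the log2(FPKM + 1) scale had a median of 0.16 over the 68 genes and 0.14 over all genes tested. The 24 members at 100 FPKM or more had a median SD of 0.14, as had all genes at that level, and the 17 tested members under 5 FPKM had 0.26 where all genes at that level had 0.15. Rpl36 varied the most, with an SD of 1.27. It was at 41.0, 5.78 and 30.2 FPKM in vehicle at ZT0, 32.7, 25.8 and 35.9 at ZT12, 29.9, 1.72 and 29.9 FPKM with the product at ZT0 and 31.3, 14.0 and 23.9 FPKM at ZT12. The 2 low values are again replicate 2 of the ZT0 groups. Without the library in question the log2 fold change of Rpl36 was -0.17 for time in vehicle and -0.43 for time with the product. For the product at ZT0 both low libraries take part, and single replicates left out gave -1.40 to 0.58. The 0.58 leaves out the low product library alone and keeps the low vehicle library. Rpl35, which lies at the peptide exit of the large subunit, had an SD of 0.78 and ranged from 0.88 to 9.46 FPKM. Rps4l, a copy of the X-linked Rps4x, is annotated as a transcribed processed pseudogene without a coding sequence. It had an SD of 0.58 and ranged from 31.2 to 102.7 FPKM, while Rps4x stayed between 127.6 and 183.0 FPKM. Replicate 1 of vehicle at ZT0 held the highest value for Rpl38 (39.2 FPKM), Rpl34 (82.5 FPKM), Rps28 (20.2 FPKM) and Rps29 (7.38 FPKM).

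The other lists around translation were counted in the same fits. Ribosomal proteins whose symbols escape the rule, such as Rplp0 and Rpsa, had medians of -0.16 and -0.07 for time in vehicle and product, with 4 and 6 of 7 lower. Elongation factors and other mRNAs known to carry a TOP tract did not share the direction: 4 of 15 were lower at ZT12 in vehicle-treated mice (median 0.12) and 5 of 15 with the product (median 0.12). In that list Eef1g, a subunit of the elongation factor that reloads eEF1A, fell with vehicle (log2 fold change -0.31, SE 0.08, limma adjusted p = 0.0498). Of 18 genes of mTORC1 and its control of TOP mRNAs, 0 passed the adjusted test with limma in any comparison. At p under 0.05, 3 were higher and 1 lower for time in vehicle (background 14.4% and 13.0% of all genes). With the product 1 was higher and 1 lower (15.7% and 13.4%). Mitochondrial ribosomal protein genes were split, with 36 of 73 lower in vehicle and 28 of 73 with the product. Mrps27 fell in both treatments (-0.59, SE 0.12, limma adjusted p = 0.0283 with vehicle, and -0.60, SE 0.09, adjusted p = 0.00791 with the product), and Mrpl4 in vehicle (-0.47, adjusted p = 0.0370).

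Respiratory chain subunits leaned the other way, with 22 of 72 lower at ZT12 in vehicle (median 0.05) and 17 of 72 with the product (median 0.06), and 0 passed the adjusted limma test. At p under 0.05, 8 were higher and 0 lower in vehicle (background 14.4% and 13.0% of all genes), and 2 higher and 1 lower with the product (15.7% and 13.4%). None of these counts exceeds the background share. Proteasome subunits resembled the ribosomal proteins in sign, with 30 of 36 lower in vehicle (median -0.09) and 25 of 36 with the product (median -0.06). At p under 0.05, 3 were higher and 7 lower in vehicle (background 14.4% and 13.0% of all genes). With the product 3 were higher and 10 lower (15.7% and 13.4%). Both lower counts of the proteasome subunits exceed the background share, which those of the ribosomal proteins do not. The catalytic subunits of the immunoproteasome Psmb8, Psmb9 and Psmb10 were higher at ZT12 than at ZT0 with the product (0.65, 0.69 and 0.74, limma adjusted p = 0.00366, 0.0142 and 0.0125). Psmd11 was lower at ZT12 there (-0.33, adjusted p = 0.0446) and Psmc2 with vehicle (-0.37, adjusted p = 0.0318). Of all genes, 7% were called higher and 5.36% lower with the product, and 4.78% lower with vehicle. Between product and vehicle, 0 of the 36 had p under 0.05 at ZT0 or ZT12, and 0 did in the interaction (background 2.80% to 5.81% in each direction). These lists share the same libraries, and no difference between a list and the ribosomal proteins was tested.

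Marker sums of other cell types were compared beside the time difference, and the endothelial sum was lower at ZT12 without overlap in both treatments. The stellate cell and fat sums were lower without overlap with the product, and the pancreas sum with vehicle. The 5 endothelial markers summed to between 6.84 and 9.96 FPKM in vehicle at ZT0 and 3.96 and 5.48 at ZT12, and to between 8.08 and 9.97 and 5.09 and 6.26 FPKM with the product, with 0 of them listed at 0. The 5 stellate cell markers summed to between 31.4 and 58.4 FPKM at ZT0 and 29.2 and 45.7 at ZT12 with vehicle, and to between 48.0 and 64.8 and 23.2 and 41.9 FPKM with the product. The 5 pancreas markers summed to between 47.2 and 70.0 FPKM at ZT0 and 30.2 and 45.8 at ZT12 with vehicle, and to between 51.6 and 75.5 and 42.4 and 53.1 FPKM with the product, with Prss2 and Cpa1 at 0. The 4 fat markers, with Lep at 0, summed to between 8.23 and 13.3 FPKM at ZT0 and 7.01 and 9.90 at ZT12 with vehicle, and to between 10.8 and 15.2 and 7.66 and 10.8 FPKM with the product. The 1 erythroid marker lay between 59.4 and 99.6 FPKM and overlapped between times. The hepatocyte sum was between 33630 and 37460 FPKM in vehicle at ZT0 and 38360 and 47030 FPKM with the product at ZT0, without overlap, and between 31440 and 35480 and 35070 and 41940 FPKM at ZT12. The 8 macrophage markers overlapped between times (21.0 to 52.9 FPKM over the 12 libraries), and the 7 lymphocyte markers summed to between 1.27 and 2.70 FPKM. The part of these cell types in the ribosomal protein values was not tested.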

How the data were processed

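Liver RNA of 12 mice was sequenced, and the deposited table holds FPKM for 24138 lines, from which 289 repeated symbols were dropped. According to its methods, ELAND placed reads of 1 end on mm10 and splice junctions, and the authors discarded reads without a unique best match and gave RPKM, while the submitters' processing notes name TopHat, Cuffnorm, mm10 and GRCm38, and the table is in FPKM. Which pipeline made the deposited FPKM is not settled by these sources. The methods describe a stranded library and the labels a TruSeq kit v2, so reads of overlapping antisense genes may not have been separated. The depth is unknown, and steps of low values gave a relative depth between 0.702 and 1.26 over the libraries, so no counting interval is given. The table has no column of another sample.

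Values were tested as log2(FPKM + 1) with limma 3.58.1 (trend, two-sided) in R 4.3.3, on 9806 genes averaging 1 FPKM or more, each pair of groups alone and the interaction over 12 samples, with Benjamini-Hochberg adjustment over all genes tested. Tables were handled in Python 3.11.15. The pipeline was tested on simulated data. The labels call the 3 mice of a group biological replicates. The genes, lists and tests were chosen with earlier results of these data known. Named in each comparison are the members with the 5 highest and 5 lowest fold changes, those passing the adjusted test, the 5 highest and lowest levels, genes under the minimum and paralog pairs with their partners, and in the related lists those passing the adjusted test. The genes Rpl5, Rpl14, Rpl21, Rpl26, Rpl32, Rps3 and Rps18 were named after their values were seen. Values of some single genes are not reported here, and these genes stay in the counts. Alternatives were a pseudocount of 0.1, no minimum or a minimum of 5 FPKM, limma without trend, median-ratio scaling, quantile normalization, removal of a GC and length trend, a fit over all 12 samples, a replicate block, a Cyber-T version of the test, the list without paralogs and Rps19bp1, each replicate left out and, chosen after seeing the data, replicate 2 of both ZT0 groups left out. Uniqueness was measured on GENCODE vM21 transcripts and not on the genome, so copies outside annotated genes were not counted.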

Additional observations from a re-analysis of the deposited data

Results flagged for a closer look

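At an unadjusted p under 0.05, 5 of the 68 genes had an interaction of time and treatment, 4 positive and 1 negative. Of all genes, 3.82% had a positive and 2.80% a negative interaction at that level, so the count of 5 is near the background share. With limma and Benjamini-Hochberg adjustment none of the 5 passed. The interaction was 1.19 for Rps29 (SE 0.53, adjusted p = 0.740), in which vehicle ZT0 replicate 1 alone reached 7.38 FPKM. It was 0.49 for Rpl37 (SE 0.21, limma adjusted p = 0.735) and 0.35 for Rpl10 (SE 0.15, limma adjusted p = 0.735), both at levels between 1.68 and 4.78 FPKM. For Rps12 it was -0.71 (SE 0.27, limma adjusted p = 0.666), at levels between 0.666 and 2.52 FPKM. For Rpl7l1 it was 0.28 (SE 0.10, limma adjusted p = 0.665). With the product, Rpl7l1 was lower than with vehicle in every mouse at ZT0 (24.7, 21.2 and 23.9 against 27.0, 26.2 and 26.4 FPKM) and higher in every mouse at ZT12 (23.1, 25.3 and 23.6 against 22.4, 21.96 and 22.9 FPKM). The causes of these differences were not tested.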

How the results depend on the processing

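Medians for time stayed below 0 in all 17 settings of each treatment, between -0.15 and -0.05 in vehicle and between -0.17 and -0.04 with the product. The median changed sign in 3 of 17 settings for the product at ZT0, 2 of 16 at ZT12 and 5 of 21 for the interaction. Limma without trend, the fit over all 12 samples, the replicate block and the Cyber-T version change only the test and keep the main median. These settings are among those counted but could not change its sign. Counts are of genes higher or lower at p under 0.05, or called after adjustment. They are out of 68 genes, except where the setting changed the list. No minimum gave 79 genes, a minimum of 5 FPKM 51, and the list without paralogs and Rps19bp1 62. Counts from these 3 settings therefore differ from the main counts partly through the genes they hold.

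For time in vehicle (2 higher, 7 lower, 0 called), 1 was called with no minimum, with quantile normalization and with the Cyber-T version. The count called was also 1 with both doubted ZT0 libraries (replicate 2 of each ZT0 group) left out, and 2 in the fit over all 12 samples. Over all genes tested, these settings called 259 to 805 higher and 256 to 734 lower. Of the members, 1 was higher with a pseudocount of 0.1, a minimum of 5 FPKM or the fit over all 12 samples. The higher count was 0 with the GC and length trend removed or both doubted libraries left out. In these settings, 1070 to 1565 of all genes tested were higher. The lower count was 12 with quantile normalization, 4 with the Cyber-T version, 11 without both doubted libraries and 4 without the paralogs and Rps19bp1. Of all genes tested, 14.1%, 12.4%, 13.3% and 13.0% were lower there. For time with the product (1 higher, 2 lower, 1 called), 0 were called with no minimum, a minimum of 5 FPKM or the GC and length trend removed. The count called was also 0 in the fit over all 12 samples or with both doubted libraries left out, and 7 with quantile normalization. Over all genes tested, these settings called 367 to 812 higher and 261 to 662 lower. The higher count was 2 with no minimum, 0 with a minimum of 5 FPKM or the fit over all 12 samples and 3 with the Cyber-T version. In these settings, 1173 to 1786 of all genes tested were higher. The lower count was 1 with a minimum of 5 FPKM, 16 with quantile normalization and 7 with the GC and length trend removed. It was 4 with the Cyber-T version and 7 without both doubted libraries. Of all genes tested, 12.8%, 15.6%, 15.5%, 13.2% and 12.1% were lower there. Rps29 is under the minimum of 5 FPKM and was not tested there.

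For the product at ZT0 (1 higher, 1 lower), the Cyber-T version gave 3 higher and 4 lower, where 364 and 491 of all 9806 genes were. The lower count was 2 with no minimum and 3 with the GC and length trend removed. It was 4 in the fit over all 12 samples and 4 without both doubted libraries. Of all genes tested, 4.55%, 5.04%, 6.97% and 3.89% were lower there. At ZT12 (1 higher, 1 lower), 0 were higher with no minimum, a minimum of 5 FPKM, the GC and length trend removed or the fit over all 12 samples. The higher count was 2 with quantile normalization and 3 with the Cyber-T version. In these settings, 206 to 510 of all genes tested were higher. With no minimum and with the Cyber-T version 3 were lower, where 3.69% and 3.41% of all genes were. After adjustment the Cyber-T version called 0 members for the product at either time. Of all 9806 genes it called 29 higher and 54 lower at ZT0, and 20 higher and 13 lower at ZT12, where limma called 0. For the interaction (4 positive, 1 negative), a minimum of 5 FPKM gave 1 positive and 0 negative, where 261 and 161 of 6151 genes were. No minimum gave 3 negative, and median-ratio scaling and quantile normalization 2 negative each. Of all genes tested, 3.02%, 3.14% and 3.23% had a negative interaction there.

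With a replicate block, 1 gene was higher for time in vehicle, where 1193 of the 9806 genes were. With the product, time gave 0 called, 2 higher and 4 lower under the replicate block. Of all genes, 1445 were higher and 12.3% lower there. The product gave 3 higher and 2 lower at ZT0, where 339 of all genes were higher and 4.64% lower. At ZT12 it gave 2 higher and 2 lower, where 306 of all genes were higher and 3.46% lower. The labels number the replicates, and whether the numbers mark a pairing or a batch is not known. Correlations of deviations between same-numbered samples ran from -0.279 to 0.257, which does not settle it.

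Leaving out 1 replicate at a time gave 0 to 1 called, 0 to 3 higher and 4 to 11 lower for time in vehicle (medians -0.15 to -0.05), and 0 to 2 called, 1 to 2 higher and 0 to 7 lower with the product (-0.16 to -0.04). It gave 0 to 4 higher and 0 to 5 lower for the product at ZT0 (-0.08 to 0.06) and 1 to 4 higher and 0 to 3 lower at ZT12 (-0.07 to 0.02). For the interaction it gave 0 to 6 positive and 0 to 3 negative (-0.07 to 0.07). Of all genes, 9.78% to 13.5% were lower for time in vehicle and 10.6% to 12.8% with the product. The product gave 3.46% to 7.33% lower at ZT0 and 2.60% to 5.53% at ZT12, and the interaction was negative for 2.29% to 3.83%. The genes higher numbered 1031 to 1470, 1258 to 1539, 186 to 469 and 230 to 347 of 9806, and 316 to 520 had a positive interaction.

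Single genes changed sign as follows. For time in vehicle without its ZT0 replicate 2, also with both doubted libraries left out, Rpl35 was at -0.014 and Rpl36 at -0.17 (without single replicates -0.014 to 0.92 and -0.17 to 1.15). With the product and without its ZT0 replicate 2, Rpl36 was at -0.43 for time and 0.58 for the product at ZT0 (-0.43 to 1.32 and -1.40 to 0.58). The 0.58 keeps the low vehicle replicate 2. For time with the product, Rpl10 was at -0.012 with median-ratio scaling, -0.060 with the GC and length trend removed and -0.065 to 0.12 without single replicates, and Rpl37 at -0.00239 with the trend removed and -0.072 to 0.13 without single replicates. Rps4l at ZT12 was at 0.28 without vehicle replicate 1 (range -0.56 to 0.28). The causes were not tested.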

Other observations

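Of the symbols left out by the rule, 3 join a ribosomal protein gene with a neighbour and were not tested here as members. The joint symbol of Gm12191 and Rpl30 had a mean of 104.6 FPKM, that of Mir5121, Rpl13a and Snord33 240.1 FPKM, and that of Acads and Rpl37rt 580.2 FPKM. In such a symbol the reads of Acads, an enzyme of fatty acid oxidation, and of Rpl37rt cannot be told apart. Among the 5 pseudogene symbols, Rpl14-ps1 was at 360.1 FPKM, Rps19-ps3 at 3.40, Rps15a-ps6 at 1.09 and Rps15a-ps4 at 0.560 FPKM, and Rpl31-ps12 is listed at 0 in every library.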
